A study of Sus scrofa with 9 samples.

Results

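Kidneys kept for 8 h under normothermic ex vivo kidney perfusion (NEVKP) were compared with kidneys kept for 8 h in static cold storage (SCS), both sampled on day 3 after transplantation. In NEVKP an organ is perfused outside the body at body temperature, and in SCS it lies in cold solution without flow. The comparison took the 6 arrays that the labels assign to these treatments, 3 NEVKP and 3 SCS, out of 9 in the series, and covered the 12355 genes that have a single symbol in the array annotation, out of 19124 probe sets. Each gene was read from its probe set of highest mean over all 9 arrays. All animals were male Yorkshire pigs of 30 kg, and each contributed 1 kidney and 1 array. In every animal the right kidney underwent 30 min of warm ischemia, was taken out and flushed, and was later put back into the same animal (autotransplantation), with the left kidney removed in that operation. No kidney went to another animal. The other 3 kidneys, the No Storage group, were put back without a storage period. That group carries the same 30 min of warm ischemia, so it is a reference level and not an uninjured kidney. Its arrays entered the fit only to share the estimate of the spread. That group varied least: the median standard deviation of a probe set was 0.15, against 0.19 in SCS and 0.18 in NEVKP.

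Interrupted blood flow and its return injure the nephron, above all the proximal tubule and the thick ascending limb, whose ion pumps need a steady supply of ATP. Injured tubule cells lose transport and metabolic genes, express keratins and injury proteins, re-enter the cell cycle to repair the tubule, and draw in leukocytes. Cold storage slows metabolism in an organ without oxygen, whereas warm perfusion keeps it supplied and metabolically active. The series' design text names this comparison among those made.

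Values are log2 intensities after robust multi-array averaging (RMA), so a difference of 1 is a doubling. Array medians ran from 5.70 to 5.80 and correlations between arrays from 0.974 to 0.991. The tissue label was checked against defining markers. LRP2 (megalin, the uptake receptor of the proximal tubule) was brighter than 99.9% of probe sets by its mean over all arrays. UMOD (uromodulin, the secreted protein of the thick ascending limb) was brighter than 99.6%, and NPHS1 (nephrin, of the podocyte slit diaphragm) than 45.9%. SLC34A1, a further proximal tubule marker given below, read near or under the array medians in SCS and NEVKP. The arrays of lowest estimated weight, a measure of how closely an array follows its group, were SCS replicate 2 (0.464) and NEVKP replicate 2 (0.565). Among the 6 arrays, SCS replicate 2 held the lowest value of 23.2% of genes and the highest of 21.8%, and NEVKP replicate 2 held the highest value of 21.9%. The small number of arrays limits the precision of every value below.

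No probe set passed an adjusted p under 0.05 in limma's moderated test (0 of 19124, hence 0 of the 12355 genes). At an unadjusted p under 0.05, limma called 1434 probe sets, 7.50% of those tested: 3.80% were higher and 3.70% lower in NEVKP. Among genes, 546 (4.42%) were higher in NEVKP and 407 (3.29%) lower at that level. Fitted to the 6 arrays alone, without the less variable No Storage group, limma gave 402 genes higher and 335 lower. Every NEVKP array lay above every SCS array in 721 genes (5.84%) and below in 811 (6.56%). The smallest adjusted p was 0.184, shared by 2 probe sets. A difference of at least 2-fold was measured for 70 genes higher in NEVKP and 16 lower, of which 35 and 8 had groups that did not overlap. Across all genes the median difference, NEVKP minus SCS, was -0.0045, and 95% of genes lay between -0.44 and 0.58. All genes named below are therefore given as measured differences and not as calls.

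UBD, a ubiquitin-like modifier that cytokines induce (NCBI Gene ID 100294688), had the smallest p. Its log2 value was 6.53, 7.14 and 6.49 in SCS replicates 1 to 3 and 8.48, 8.05 and 8.10 in NEVKP replicates 1 to 3. All 3 NEVKP arrays were above all SCS arrays and above the No Storage arrays, which read 6.75 to 6.92. The difference was 1.49 (SE 0.19, 95% interval 1.07 to 1.92), a fold of 2.81, with a limma adjusted p of 0.184. A further UBD probe set differed by 1.15. With SCS replicate 2 left out the limma adjusted p of UBD was 0.0389, and with array weights it was 0.0453. CDKL2, a protein kinase related to the cyclin-dependent kinases (Gene ID 100737771), had the same adjusted p as UBD. It read 5.27, 5.88 and 5.61 in SCS and 6.79, 7.13 and 6.85 in NEVKP, a difference of 1.34 (SE 0.18, limma adjusted p = 0.184), with No Storage arrays at 6.58 to 6.92. SLC28A2, a sodium-coupled transporter of purine nucleosides, read 4.59, 4.11 and 4.13 in SCS and 5.37, 5.49 and 5.26 in NEVKP. It was higher in NEVKP by 1.10 (SE 0.16, limma adjusted p = 0.24).

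The other 12 of the 15 genes named by smallest p on the higher side had limma adjusted p from 0.243 to 0.439, and in each the NEVKP arrays lay above the SCS arrays. ADRA1B, an alpha-1 adrenergic receptor, was higher by 0.81 and RPS6KA6, a kinase of the RSK family, by 0.94. CASQ2, which holds calcium in the sarcoplasmic reticulum, and RYR2, the channel that releases it, were higher by 0.88 and 0.78. CASQ2 read 6.57, 6.78 and 7.01 in SCS and 7.75, 7.49 and 7.74 in NEVKP, and 8.27 to 8.58 in No Storage, so the NEVKP arrays lay between the other groups. SLC38A11, of the sodium-coupled amino acid transporter family, and SLC52A3, a riboflavin transporter, were higher by 0.96 and 0.91. LYRM7, an assembly factor of respiratory complex III, was higher by 0.73, and CERS6, a ceramide synthase, by 1.11. TBC1D32 and IQCB1, both proteins of the primary cilium, were higher by 0.57 and 0.63. CAMK1D, a calcium and calmodulin dependent kinase, was higher by 1.27, and UMOD by 2.40.

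On the lower side, the smallest limma adjusted p was 0.314. HSPB8, a small heat shock protein that works with the co-chaperone BAG3, read 6.53, 5.93 and 5.98 in SCS and 5.25, 4.99 and 4.98 in NEVKP. It was lower in NEVKP by a log2 difference of -1.07 (SE 0.19, limma adjusted p = 0.314), and its No Storage arrays, 5.46 to 5.90, lay between. RBP4, the retinol carrier of plasma that the proximal tubule takes up from the filtrate (Gene ID 397124), read 10.29, 9.80 and 9.78 in SCS and 8.43, 7.92 and 8.38 in NEVKP. The groups were far apart, with a difference of -1.72 (SE 0.30, limma adjusted p = 0.314), a fold of 3.29, and No Storage arrays at 7.42 to 8.59. ITGA3, the alpha-3 integrin chain of a laminin receptor, differed by -1.25 (limma adjusted p = 0.338), and a further probe set of it by -1.05. It read 9.83, 9.48 and 9.14 in SCS and 8.60, 8.05 and 8.06 in NEVKP. KRT18, a keratin of simple epithelia, read 9.12, 9.27 and 8.56 in SCS and 8.08, 7.99 and 8.19 in NEVKP (difference -0.89, limma adjusted p = 0.42).

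The remaining 11 genes named on the lower side had limma adjusted p of 0.52, and their groups did not overlap either. REG3G, a secreted antimicrobial lectin, had the largest of these differences, -1.52. It read 10.07, 9.56 and 9.55 in SCS and 8.46, 7.61 and 8.54 in NEVKP, and its No Storage arrays, 8.00 to 9.38, overlapped with NEVKP. ESPL1 (separase, which cuts cohesin at anaphase) and AURKA (a mitotic kinase) differed by -0.60 and -0.78. KLF5, a transcription factor of epithelia, differed by -0.60, and EN2, a homeobox factor, by -0.63. SEMA6A, a semaphorin, differed by -0.62 and DCTPP1, which hydrolyses dCTP, by -0.63. ABHD4, a lipid hydrolase, differed by -0.69 and S100A2, a calcium-binding protein, by -0.67. NKAIN1, a partner of the sodium pump, differed by -0.57. IFNK, an interferon gene, differed by -0.54 and was dim, meaning in the lowest 25% of probe sets by mean.

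**Figure D1:**
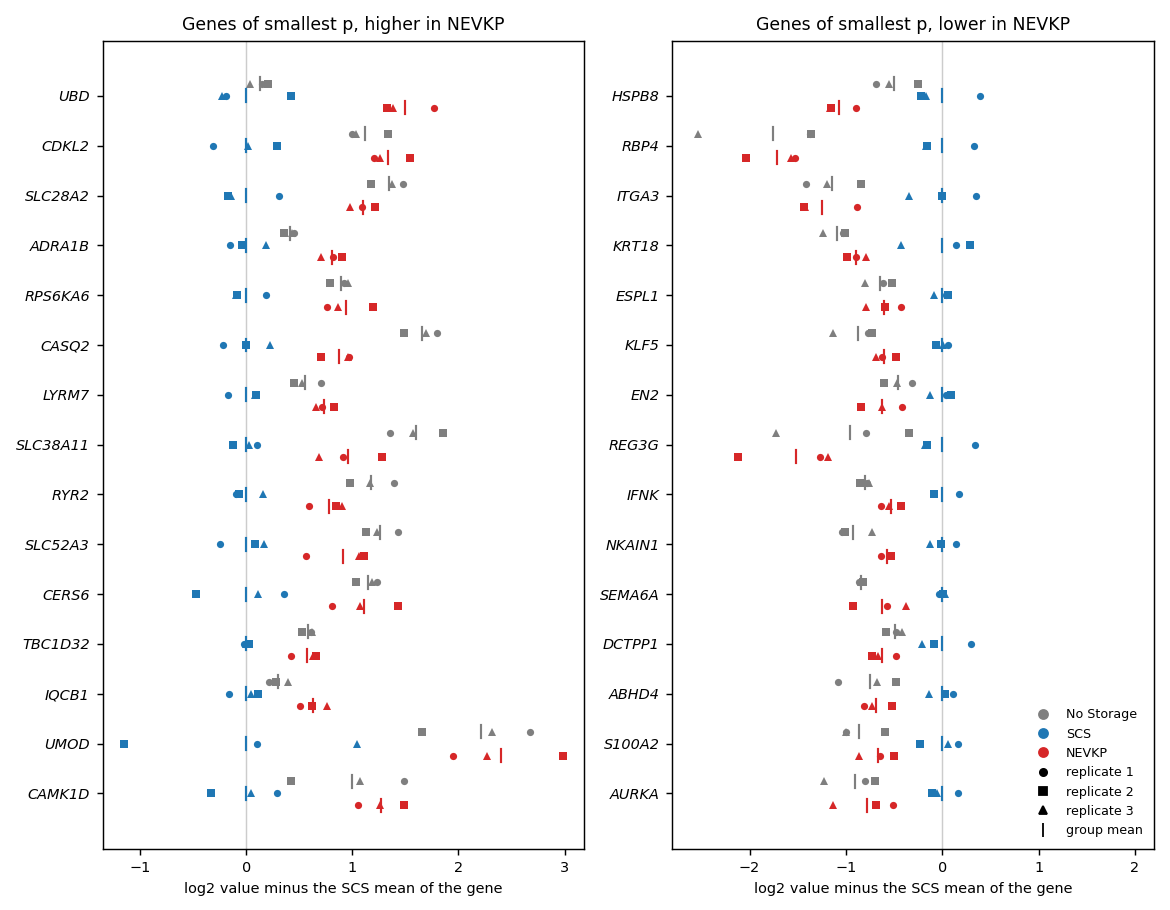
The 15 genes of smallest unadjusted limma p on each side, with the log2 value of each array minus the gene's SCS mean on the x axis. Points are arrays, colours groups, shapes replicate numbers and vertical ticks group means. All NEVKP points lie right of all SCS points in the left panel and left of them in the right panel, as the rule required, and the UMOD points of SCS spread from 8.84 to 11.03 before centring.

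Genes were then read by list, 16 of pathways and 13 of cell types, against the background of 4.42% higher and 3.29% lower. For counts of positive and negative differences the background was 49.1% and 50.9% of all genes. The list with the greatest share of members higher in NEVKP at an unadjusted p under 0.05 was that of the thick ascending limb and distal tubule (47.4%). Antigen processing and presentation (25.8%), amino acid metabolism of tubule cells (24.1%) and interferon response (23.5%) came next. On the lower side stood cell cycle and proliferation (37.5%), neutrophil genes (26.7%) and oxidative stress with NRF2 targets (25.8%). No list had a member past an adjusted p of 0.05. Where a count of 0 to 2 members is given below, leaving out 1 array moved it by at most 2 members unless a value is stated.

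**Figure D2:**
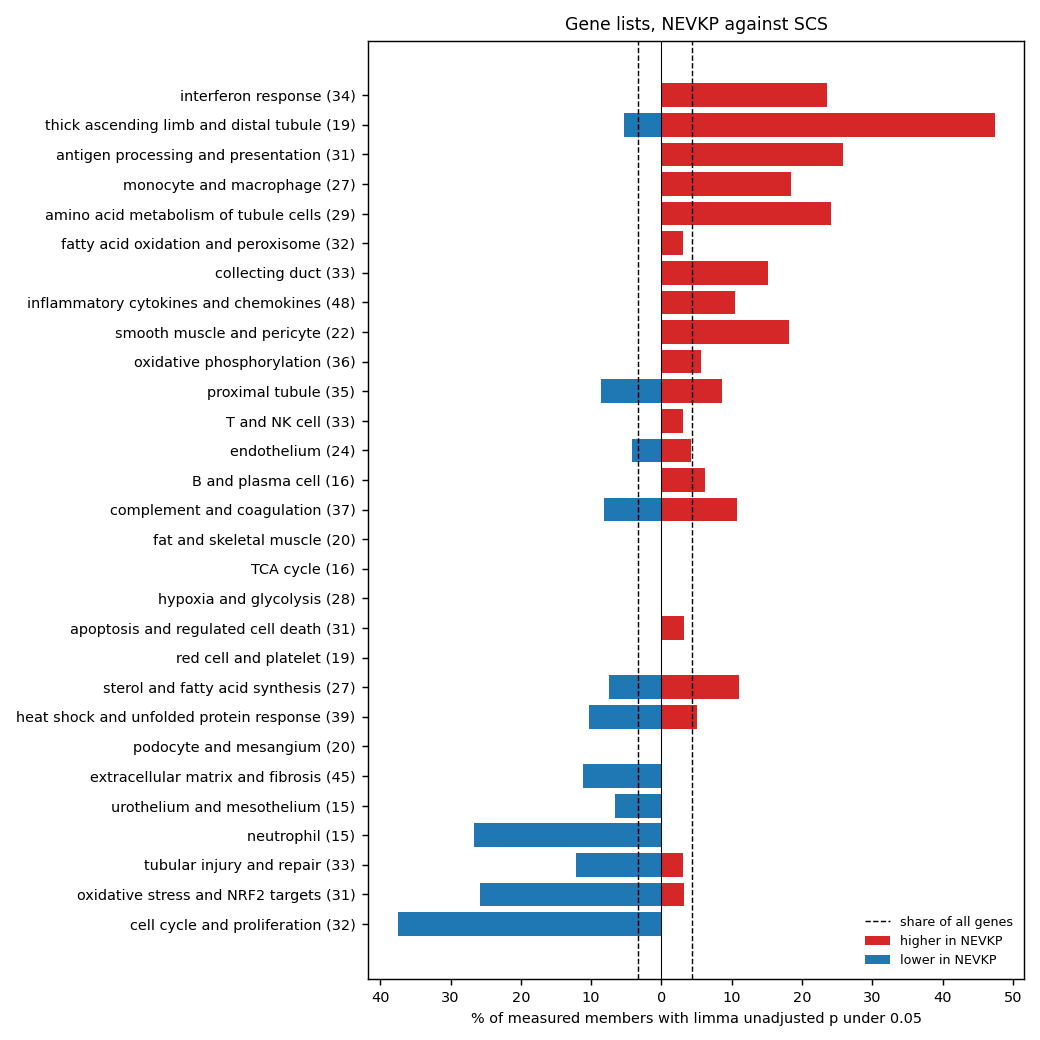
Share of each list's measured members with a limma unadjusted p under 0.05, in percent, to the right for higher in NEVKP and to the left for lower, with the number measured in brackets and lists ordered by median difference. Dashed lines mark the shares among all 12355 genes, 4.42% and 3.29%; the bar of the thick ascending limb and distal tubule reaches 47.4% and that of the cell cycle 37.5% on the other side.

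The thick ascending limb reabsorbs salt without water and, with the distal tubule, sets magnesium and calcium excretion. Of 19 measured genes of these segments, 9 were higher in NEVKP and 1 lower at an unadjusted p under 0.05, 17 differences were positive, and the median difference was 0.51 against -0.0045 over all genes. UMOD read 10.09, 8.84 and 11.03 in SCS and 11.93, 12.96 and 12.26 in NEVKP. The groups did not overlap, and the difference of 2.40 (SE 0.49, limma adjusted p = 0.439), a fold of 5.28, was the greatest of all genes in either direction. No Storage arrays read 11.64 to 12.66 and overlapped with NEVKP. SLC12A1, the sodium-potassium-chloride cotransporter of this segment, read 10.20, 10.39 and 10.42 in SCS and 10.84, 12.14 and 11.33 in NEVKP (difference 1.10). KNG1, kininogen, read 8.64, 7.68 and 9.60 in SCS and 10.27, 10.92 and 10.08 in NEVKP (difference 1.78, limma adjusted p = 0.52). CASR, the calcium-sensing receptor, and KCNJ1, the potassium channel ROMK, were higher by 1.14 and 0.54, and SLC16A7, a monocarboxylate transporter, by 0.77. CNNM2, needed for magnesium handling, and ATP1B1, the beta subunit of the sodium pump, were higher by 0.59 and 0.41. CALB1, the calcium buffer calbindin of the distal convoluted and connecting tubule, was higher by 1.24 with overlapping groups.

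The exception was TRPV5, the calcium entry channel of the distal convoluted and connecting tubule. It read 6.58, 6.75 and 6.65 in SCS and 6.68, 4.99 and 5.07 in NEVKP, so that replicates 2 and 3 were low and replicate 1 was within the SCS range (difference -1.08, limma adjusted p = 0.648). The count of 9 became 6 without SCS replicate 1, and the median stayed between 0.34 and 0.67 without any single array. NEVKP replicate 2 held the highest of the 6 values for 11 of the 19 genes, against 21.9% of all genes. SCS replicate 1 held the lowest for 9, against 14.8% of all genes. The summed intensity of the 19 genes was 11086 to 15487 in SCS, 20473 to 28476 in NEVKP and 20143 to 25492 in No Storage, with no overlap between SCS and NEVKP. In whole biopsies, fewer cells of a type and less RNA per cell cannot be told apart. The labels used here do not say whether a biopsy held cortex, medulla or both, and its part in these values was not tested.

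**Figure D3:**
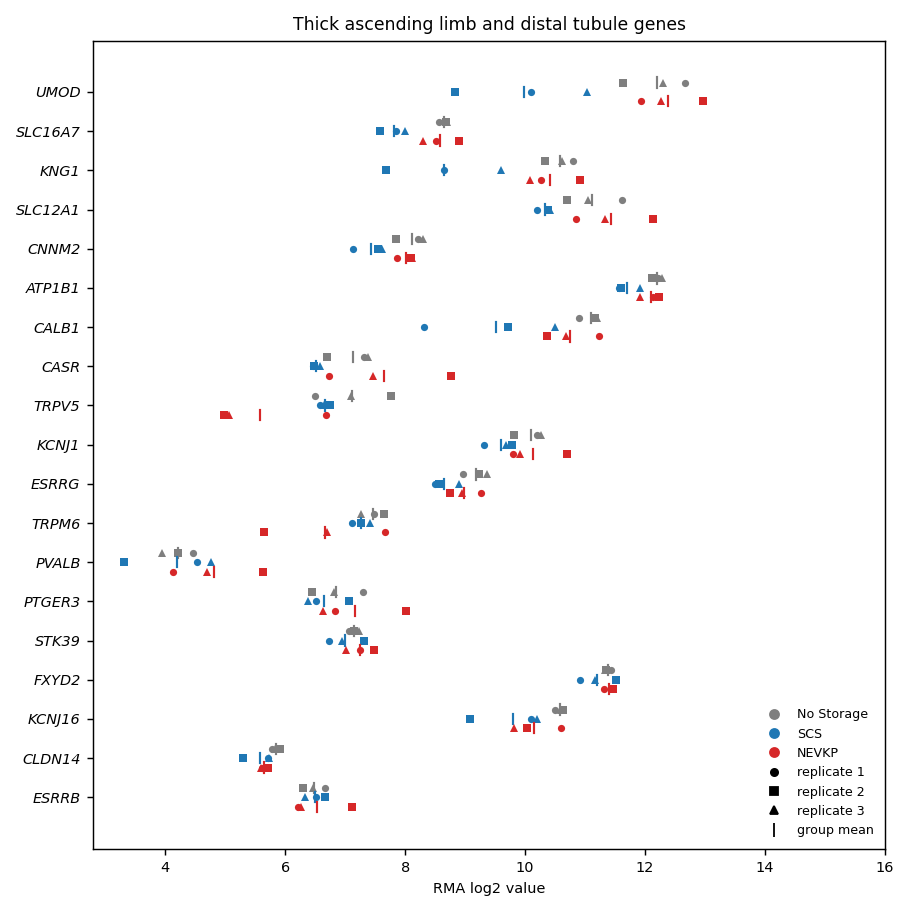
RMA log2 value on the x axis for the 19 measured thick ascending limb and distal tubule genes, ordered by limma p. Points are arrays, colours groups, shapes replicate numbers and vertical ticks group means; NEVKP points of UMOD, KNG1 and SLC12A1 lie right of all SCS points, and TRPV5 has NEVKP replicates 2 and 3 at 4.99 and 5.07.

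The collecting duct list, which holds principal and intercalated cell genes, had 5 of 33 higher and 0 lower at an unadjusted p under 0.05, with a median of 0.19. KCNJ15, a potassium channel, read 9.65, 8.86 and 10.02 in SCS and 10.71, 10.40 and 10.53 in NEVKP, with a difference of 1.04 (limma adjusted p = 0.52). TMEM213 was higher by 0.92, SLC26A7, an anion exchanger of acid-secreting intercalated cells, by 1.08, and HSD11B2, which shields the mineralocorticoid receptor from cortisol, by 0.88. ATP6V0A4, a proton pump subunit of intercalated cells, was higher by 0.71. AQP2, the vasopressin-regulated water channel, read 5.79, 6.15 and 6.57 in SCS and 6.23, 7.74 and 6.82 in NEVKP, which overlapped (difference 0.76, limma adjusted p = 0.668). The count was 3 without SCS replicate 1 and 8 without NEVKP replicate 1, and the median was -0.03 without NEVKP replicate 1, 0.04 without SCS replicate 1, 0.30 without SCS replicate 3 and 0.29 without NEVKP replicate 2.

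Proximal tubule genes were divided: of 35, 3 were higher and 3 lower, and the median was 0.10. MIOX, which oxidises inositol, read 9.48, 9.38 and 9.87 in SCS and 10.26, 10.43 and 11.17 in NEVKP (difference 1.04, limma adjusted p = 0.52). GATM, which makes the creatine precursor guanidinoacetate, was higher by 0.76, and SLC5A1, a sodium-glucose cotransporter, by 1.50 with NEVKP arrays at 6.28, 8.91 and 8.34. RBP4, GGT1 (a brush border glutamyltransferase, -0.38) and SLC17A3 (an organic anion transporter, -1.18) were on the lower side. Of the fixed markers, LRP2 differed by -0.07, SLC34A1, the phosphate transporter of the brush border, by -0.73, and PCK1, a gluconeogenic enzyme, by -0.27, with overlapping groups. SLC34A1 read 4.94, 5.61 and 5.80 in SCS and 5.49, 4.28 and 4.40 in NEVKP, near or under the array medians of 5.70 to 5.80. The direction of the list was set by single arrays: its median was -0.13 without SCS replicate 2, -0.08 without NEVKP replicate 1, -0.02 without NEVKP replicate 3, 0.05 without SCS replicate 1, 0.23 without SCS replicate 3 and 0.29 without NEVKP replicate 2. Members higher numbered 1 without SCS replicate 2 or NEVKP replicate 3, 5 without SCS replicate 3 and 7 without NEVKP replicate 2. Members lower numbered 6 without NEVKP replicate 1.

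Podocyte and mesangium genes had 0 of 20 at that level in either direction, with a median of -0.08 (-0.14 to 0.0051 without any single array) and limma adjusted p of 0.668 at the least. DACH1, a transcription factor of podocytes, was the nearest at -0.35, and NPHS1 differed by -0.04. The summed intensity of the list was 3664 to 4062 in SCS and 3273 to 3864 in NEVKP.

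Amino acid enzymes of the tubule had 7 of 29 members higher and 0 lower, with a median of 0.23. Of the 29 differences 11 were negative, down to -0.73. SARDH, which oxidises sarcosine in mitochondria, read 6.09, 6.51 and 6.24 in SCS and 7.58, 7.03 and 7.40 in NEVKP, with a difference of 1.06 (SE 0.27, limma adjusted p = 0.52). OAT, ornithine aminotransferase, was higher by 0.61 and AGMAT, agmatinase, by 0.72, both without overlap. BHMT2, a homocysteine methyltransferase, GATM and DAO, D-amino acid oxidase, were higher by 0.69, 0.76 and 0.53 with overlapping groups. In BHMT2 it was NEVKP replicate 2, at 10.37, that lay within the SCS range of 10.09 to 10.49. Members higher numbered 4 without SCS replicate 2 and 3 without NEVKP replicate 1, and the median was 0.015 without SCS replicate 2 and 0.37 without SCS replicate 3.

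Genes of fatty acid oxidation and the peroxisome were mostly positive, 26 of 32, with a median of 0.19, but 1 passed an unadjusted p of 0.05, a share of 3.12% that is under the background. That gene was ACAA1, a peroxisomal thiolase, which was higher by 0.56. PPARA, the nuclear receptor that drives this program, read 8.31, 8.08 and 8.70 in SCS and 8.85, 8.53 and 9.20 in NEVKP (difference 0.49, limma adjusted p = 0.668). CPT1A, which admits fatty acids to mitochondria, differed by 0.24. In the list, NEVKP replicate 1 held the highest of the 6 values for 17 of 32 genes and SCS replicate 2 the lowest for 19. The number higher was 6 without SCS replicate 3 and 4 without NEVKP replicate 2. The median was 0.0159 without NEVKP replicate 1, 0.08 without SCS replicate 2 and 0.31 without NEVKP replicate 2.

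Oxidative phosphorylation had 2 of 36 members higher (5.56%) and 0 lower. In this list 9 members had every NEVKP array above every SCS array and 2 below, against 5.84% and 6.56% of all genes, and the median was 0.10. NDUFS1, a core subunit of complex I, read 9.50, 8.95 and 9.59 in SCS and 9.77, 9.89 and 9.59 in NEVKP (difference 0.41, limma adjusted p = 0.655). NDUFB2, an accessory subunit, was higher by 0.31. SCS replicate 2 held the lowest of the 6 values for 18 of the 36 genes. Without SCS replicate 3 the number higher was 4, and the median was 0.16 without NEVKP replicate 1 and 0.05 without NEVKP replicate 2. The TCA cycle (16 genes) and hypoxia with glycolysis (28 genes) had 0 at that level. Their medians of 0.02 each took either sign without single arrays. VEGFA, a hypoxia-induced growth factor, differed by -0.08, and a further probe set of it by 0.26. Hypoxia with glycolysis had 3 higher without SCS replicate 1 and 3 lower without NEVKP replicate 2.

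Interferons induce a set of antiviral and antigen-handling genes in most cell types. Of 34 measured, 8 were higher in NEVKP at an unadjusted p under 0.05 and 0 lower, 32 had a positive difference, and the median of 0.56 was the highest of the 29 lists. CXCL10, a chemokine induced by interferon gamma, read 7.19, 7.04 and 7.12 in SCS and 7.86, 8.24 and 9.99 in NEVKP, a difference of 1.58 (SE 0.47, limma adjusted p = 0.574). CXCL9, a chemokine of the same receptor, read 4.93, 5.89 and 5.49 in SCS and 6.42, 6.21 and 8.27 in NEVKP (difference 1.53). GBP1 and GBP2, guanylate-binding proteins of antimicrobial defence, were higher by 1.09 and 0.98, and PSMB9, a subunit of the immunoproteasome, by 0.59. IFIT1, which binds viral RNA, read 8.35, 7.32 and 8.31 in SCS and 8.76, 8.45 and 10.42 in NEVKP.

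NEVKP replicate 3 stood apart in this list. It held the highest of the 6 values for 33 of the 34 genes, against 14.1% of all genes, and UBD was the exception. The list's mean over genes, minus the SCS mean, was 0.17, 0.19 and 1.57 in NEVKP replicates 1 to 3 and -0.23 to 0.15 in SCS. MX1, an antiviral GTPase chosen after its values were seen, read 9.05, 9.47 and 11.21 in NEVKP and 8.91 to 10.05 in SCS. Without NEVKP replicate 3 the median was 0.13 and 5 genes were higher, and without NEVKP replicate 2 the median was 0.85. The number higher was also 5 without SCS replicate 2 and 14 without NEVKP replicate 1. UBD, CXCL10, CXCL9, GBP1 and GBP2 were above all SCS arrays in each of the NEVKP arrays. In the macrophage list, given below, 5 of 27 genes were higher at an unadjusted p under 0.05, and the part of those cells in this result was not tested.

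**Figure D4:**
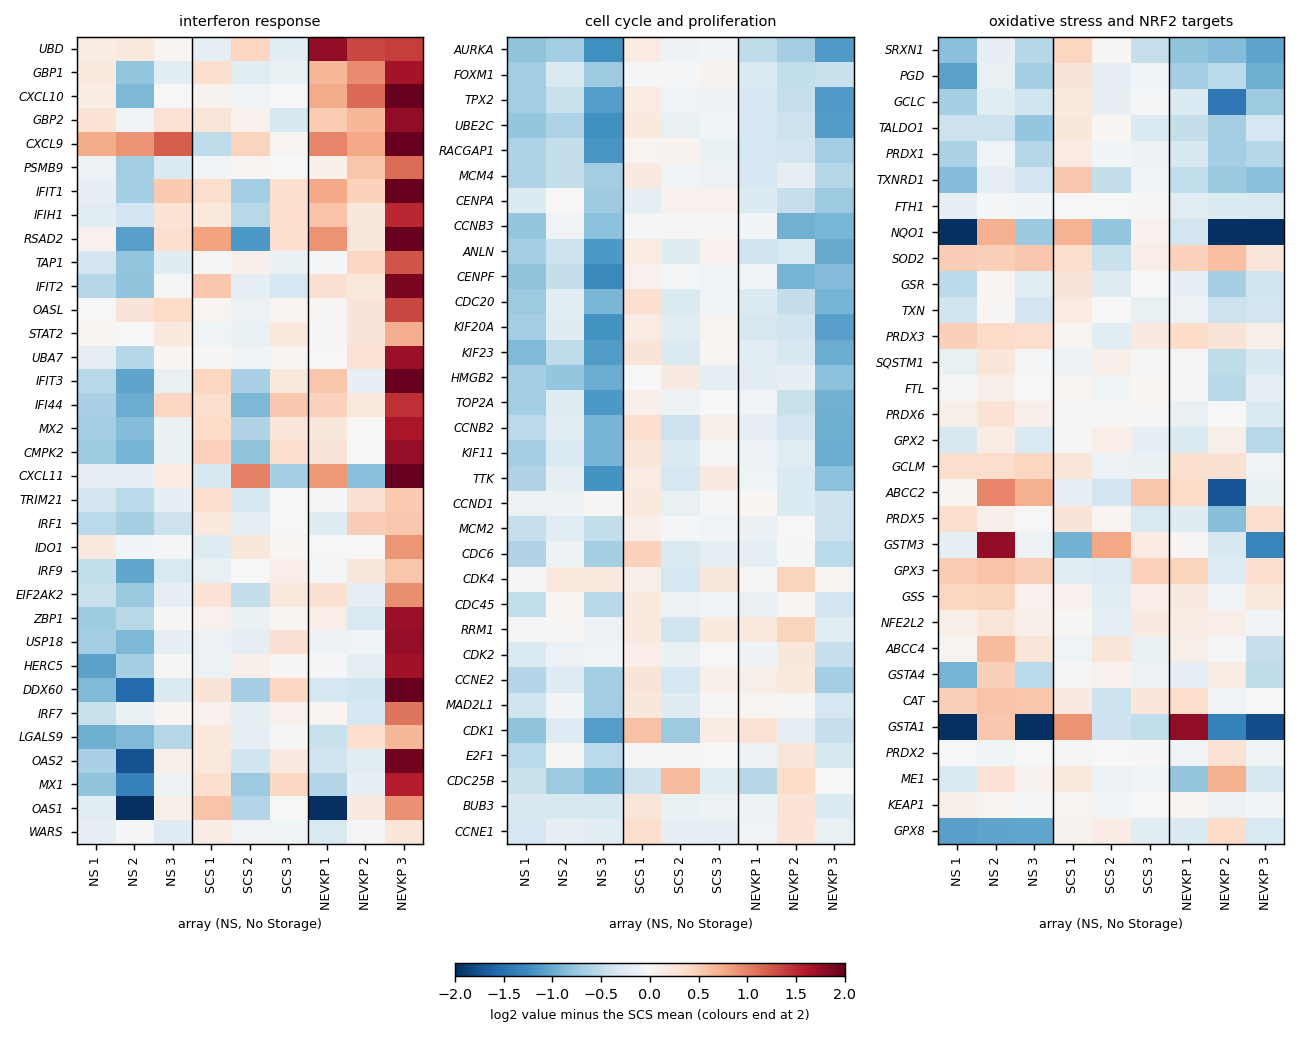
Members of the interferon, cell cycle and NRF2 lists in the order of limma p, 1 row per gene and 1 column per array, coloured by the log2 value minus the gene's SCS mean (red above, blue below, colours ending at 2). The NEVKP 3 column is the reddest for 33 of 34 interferon genes and holds the lowest of the SCS and NEVKP values for 24 of 32 cell cycle genes.

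Antigen processing and presentation, by which peptides are cut, loaded on MHC molecules and shown to T cells, had 8 of 31 members higher and 0 lower, with a median of 0.29. SLA-DQB1, a class II beta chain of the pig MHC, read 8.13, 8.16 and 8.34 in SCS and 8.49, 9.09 and 8.78 in NEVKP, with a difference of 0.58 (SE 0.17, limma adjusted p = 0.572). SLA-DMB, which helps to load class II molecules, was higher by 0.41 and SLA-DRA, a class II alpha chain, by 0.45. SLA-3 and SLA-8, of class I, were higher by 0.80 and 0.53. Of the 31 differences 9 were negative, and the lowest, -0.47, was also that of an SLA gene. Probes may not separate class I genes, which are near copies of each other. Members higher numbered 5 without SCS replicate 3 and 3 without NEVKP replicate 2 or NEVKP replicate 3, and the median was 0.19 without NEVKP replicate 3.

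Monocyte and macrophage genes had 5 of 27 members higher and 0 lower, with a median of 0.23. Of the 27 differences 7 were negative, down to -0.30. The chains of complement C1q, which tissue macrophages make, differed alike. C1QA read 7.74, 7.78 and 8.00 in SCS and 8.07, 9.48 and 9.05 in NEVKP (difference 1.03, SE 0.29, limma adjusted p = 0.563), and C1QB and C1QC were higher by 0.99 and 1.08. NEVKP replicate 1 was the lowest NEVKP array for each of the 3 chains and overlapped with SCS for C1QB and C1QC. CD86, a costimulatory protein, and VSIG4, a complement receptor of resident macrophages, were higher by 0.50 and 0.58. The summed intensity of the list was 7165 to 10171 in SCS and 10242 to 11435 in NEVKP, without overlap, and 10032 to 10346 in No Storage. The mean log2 value over the list overlapped, at 6.43 to 6.99 in SCS and 6.82 to 7.28 in NEVKP. SCS replicate 2 held the lowest of the 6 values for 17 of the 27 genes, against 23.2% of all genes. NEVKP replicate 2 held the highest for 15, against 21.9% of all genes. The number higher was 3 without SCS replicate 2 or NEVKP replicate 3. The median was 0.13 without NEVKP replicate 2 and -0.0026 without both arrays of lowest weight. CSF1R, the receptor of the macrophage growth factor, differed by 0.26 and ITGAM, an integrin of myeloid cells, by -0.18.

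Inflammatory cytokines and chemokines had 5 of 48 higher and 0 lower, with a median of 0.19. CXCL10 and CXCL9, already described, led the list. CCL8, a monocyte chemokine, read 5.83, 5.11 and 5.27 in SCS and 5.58, 7.93 and 6.95 in NEVKP (difference 1.42), and CCL28, a chemokine of epithelia, read 6.18, 6.62 and 4.92 in SCS and 6.26, 8.31 and 7.51 in NEVKP (difference 1.46). In both, replicates 2 and 3 were high and replicate 1 lay within the SCS range. CXCL12 was higher by 0.50, and PTGS2, the inducible cyclooxygenase, by 1.04 with NEVKP replicate 2 at 7.53 and the others at 5.18 and 5.79. NEVKP replicate 2 held the highest of the 6 values for 25 of the 48 genes. Without it the median was 0.0058, and without NEVKP replicate 1 it was 0.34 and the number higher was 10.

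Neutrophil genes pointed the other way, with 0 of 15 higher and 4 lower and a median of -0.18. S100A12, a calcium-binding protein of neutrophils, read 7.28, 6.45 and 6.46 in SCS and 5.86, 5.82 and 5.99 in NEVKP (difference -0.84, limma adjusted p = 0.648). CHI3L1, a chitinase-like protein that macrophages and injured epithelium also make, read 7.65, 8.20 and 7.60 in SCS and 6.16, 7.20 and 7.26 in NEVKP (difference -0.95). The other members lower were S100A9 (-0.39) and HP, haptoglobin (-0.46), both dim, as was S100A8 (-0.24). The summed intensity was 1026 to 1218 in SCS and 817 to 1070 in NEVKP, which overlapped, and 621 to 789 in No Storage. The number lower was 1 without NEVKP replicate 1 and 2 without NEVKP replicate 2, and the median was -0.08 without SCS replicate 1 or NEVKP replicate 1. T and NK cell genes had 1 of 33 higher, a share of 3.03% that is under the background of 4.42%. That member was CD2 (0.73), a T cell adhesion protein, while CD3E, of the T cell receptor complex, differed by 0.08. Members higher were 4 without SCS replicate 2 and 3 without NEVKP replicate 1. B and plasma cell genes had 1 of 16 higher, a share of 6.25% that is near the background. It was BANK1 (0.65), a B cell scaffold that read 7.31, 7.05 and 7.48 in SCS and 7.97, 7.86 and 7.97 in NEVKP.

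**Figure D5:**
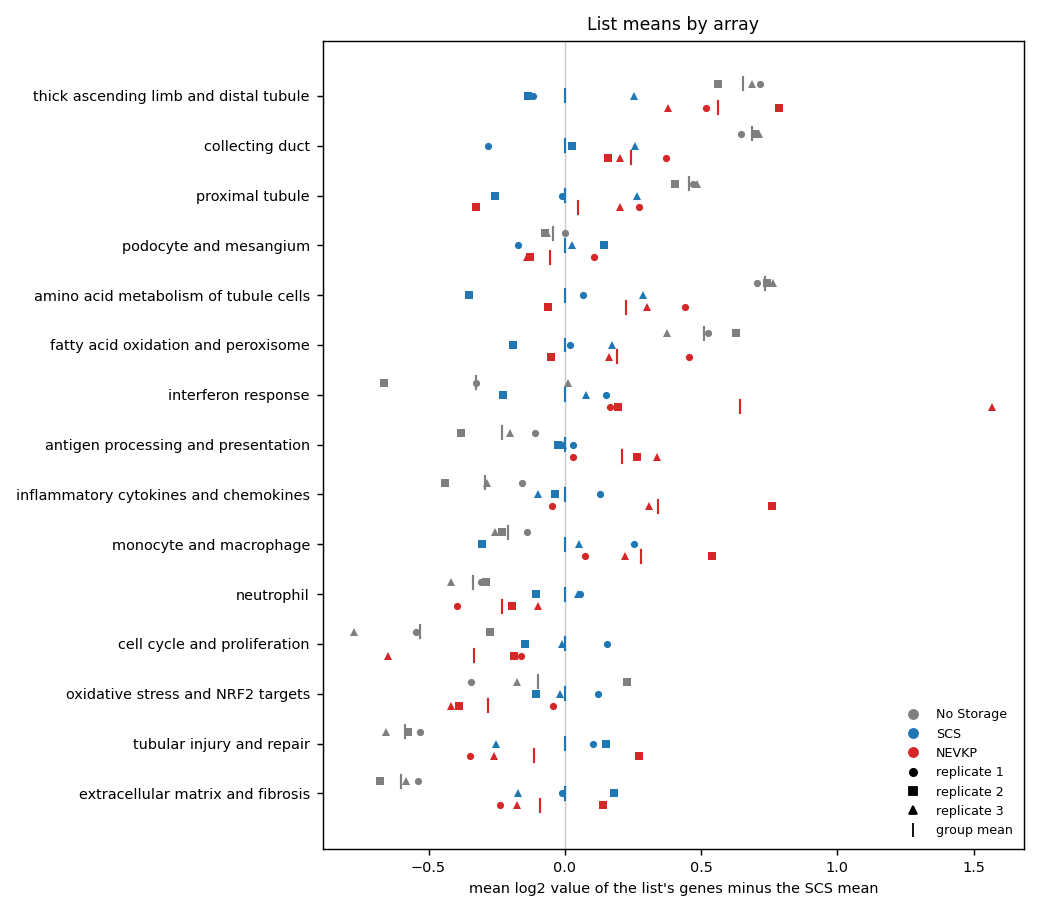
Mean log2 value of a list's measured genes in each array minus the SCS mean, for 15 lists; points are arrays, colours groups, shapes replicate numbers and vertical ticks group means. NEVKP replicate 3 lies at 1.57 for the interferon list with the other NEVKP arrays at 0.17 and 0.19, and all NEVKP arrays lie right of all SCS arrays for the thick ascending limb and distal tubule.

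Of 32 cell cycle genes, 12 were lower in NEVKP at an unadjusted p under 0.05 and 0 higher. A negative difference was measured for 29, the median was -0.40, and 10 had every NEVKP array below every SCS array, against 6.56% of all genes. AURKA read 7.87, 7.61 and 7.65 in SCS and 7.20, 7.02 and 6.58 in NEVKP, a difference of -0.78 (SE 0.19, limma adjusted p = 0.52). FOXM1, the transcription factor of mitotic genes, read 6.26, 6.28 and 6.37 in SCS and 6.01, 5.82 and 5.86 in NEVKP (difference -0.41). TPX2, a spindle protein, and UBE2C, which marks cyclins for destruction, differed by -0.64 and -0.63. RACGAP1, of the cytokinesis machinery, and MCM4, of the replicative helicase, differed by -0.47 and -0.36. NEVKP replicate 3 held the lowest of the 6 values for 24 of the 32 genes, and SCS replicate 1 the highest for 20. Without NEVKP replicate 3 the median was -0.19 and 2 genes were lower. Without SCS replicate 1 the number lower was 3, and without SCS replicate 3 it was 7. The No Storage arrays read 6.49 to 7.01 for AURKA and 5.57 to 6.02 for FOXM1, below all SCS arrays and overlapping with NEVKP.

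Of 31 genes of the antioxidant response, much of which the transcription factor NRF2 controls, 8 were lower and 1 higher, with a median of -0.25. SRXN1, sulfiredoxin, read 7.71, 7.32 and 6.84 in SCS and 6.48, 6.43 and 6.24 in NEVKP (difference -0.91, SE 0.23, limma adjusted p = 0.52). GCLC, the rate-limiting enzyme of glutathione synthesis, differed by -0.81, TXNRD1, thioredoxin reductase, by -0.69, and PRDX1, a peroxiredoxin, by -0.52. PGD and TALDO1, of the pentose phosphate pathway that supplies NADPH, differed by -0.72 and -0.50. All 6 of these had groups that did not overlap. NQO1, a quinone reductase chosen after its values were seen, had the largest difference of the list, -1.80, with values that overlapped: 10.16, 8.69 and 9.56 in SCS and 9.11, 6.68 and 7.21 in NEVKP. Its No Storage arrays ran from 7.43 to 10.18. SOD2, mitochondrial superoxide dismutase, was the member higher, by 0.43. Without SCS replicate 1 the number lower was 3, and without NEVKP replicate 3 the median was -0.09. The list's mean over genes, minus the SCS mean, was -0.04, -0.39 and -0.42 in NEVKP replicates 1 to 3. It ran from -0.10 to 0.12 in SCS, so NEVKP replicate 1 overlapped, and from -0.34 to 0.23 in No Storage. The standard deviation of that mean was 0.29 in No Storage, 0.11 in SCS and 0.21 in NEVKP.

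Heat shock and unfolded protein genes had 2 of 39 higher and 4 lower, with a median of -0.07. HSPB8 led the lower side, with PDIA6, an endoplasmic reticulum disulfide isomerase (-0.37), HYOU1, a chaperone of the same compartment (-0.38), and BAG3 (-0.41). DNAJB4, a co-chaperone, and HSF2, a heat shock transcription factor, were higher by 0.38 and 0.39. The number lower was 1 without SCS replicate 1 or NEVKP replicate 3, and 2 without SCS replicate 2, NEVKP replicate 1 or No Storage replicate 3. The median ranged from -0.15 to 0.0059 without any single array.

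Tubular injury and repair genes had 4 of 33 lower and 1 higher, with a median of -0.19. KRT18 and KLF5 were named above. KLF5 read 8.05, 7.93 and 7.99 in SCS and 7.36, 7.50 and 7.30 in NEVKP. CD44, the hyaluronan receptor of injured tubules, differed by -0.56, and MYC, a growth-promoting transcription factor, by -0.35, both without overlap. PROM1, prominin 1, a membrane protein of tubular progenitor-like cells, was the member higher, with 4.22, 5.47 and 5.05 in SCS and 6.17, 6.84 and 6.09 in NEVKP (difference 1.45, SE 0.46, limma adjusted p = 0.599). HAVCR1 (KIM-1) was dim and differed by 0.01. LCN2 (NGAL) read 10.15, 9.43 and 9.20 in SCS and 8.46, 9.95 and 9.47 in NEVKP, a difference of -0.30 with overlap. TIMP1, a metalloproteinase inhibitor, read 10.71, 10.34 and 10.10 in SCS and 9.42, 10.38 and 10.02 in NEVKP (difference -0.44), and 8.59 to 8.95 in No Storage. NEVKP replicate 2 held the highest of the 6 values for 11 of the 33 genes and SCS replicate 2 for 13. The number lower was 10 without NEVKP replicate 2, and 2 without SCS replicate 2, NEVKP replicate 1, NEVKP replicate 3 or No Storage replicate 1. The median was -0.07 without SCS replicate 2, -0.30 without SCS replicate 3 and -0.33 without NEVKP replicate 2.

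Extracellular matrix genes had 5 of 45 lower and 0 higher, with a median of -0.13. FN1, fibronectin, read 10.55, 11.31 and 10.50 in SCS and 10.15, 9.88 and 9.89 in NEVKP (difference -0.82, SE 0.21, limma adjusted p = 0.52). COL14A1, a fibril-associated collagen, differed by -0.72, and COL4A1 and COL4A2, chains of basement membrane collagen, by -0.43 and -0.42. COL5A1 differed by -0.32. COL1A1, the main fibrillar collagen, read 11.71, 12.25 and 11.42 in SCS and 11.39, 11.58 and 11.71 in NEVKP, which overlapped (difference -0.23), and 10.58 to 10.86 in No Storage. SCS replicate 2 held the highest of the 6 values for 19 of the 45 genes. Without it the median was -0.0089 and 2 genes were lower, and without NEVKP replicate 1 or NEVKP replicate 2 the number lower was 3. The median was -0.06 without NEVKP replicate 1 and -0.23 without NEVKP replicate 2 or SCS replicate 3.

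Complement and coagulation genes were divided, with 4 of 37 higher (KNG1 and the C1q chains) and 3 lower. PLAU, urokinase, read 8.54, 8.13 and 8.27 in SCS and 7.41, 7.90 and 7.39 in NEVKP (difference -0.75, limma adjusted p = 0.572), and complement C5 differed by -0.45. FGB, the fibrinogen beta chain, had the largest negative difference of all genes, -2.07, and yet overlapped: it read 9.55, 6.32 and 8.28 in SCS and 7.13, 5.10 and 5.70 in NEVKP. The number higher was 7 without NEVKP replicate 3, and the number lower 1 without SCS replicate 1.

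Smooth muscle and pericyte genes had 4 of 22 higher and 0 lower, with a median of 0.13. They were CASQ2 and RYR2, already described, PLN, phospholamban, which restrains calcium uptake into the sarcoplasmic reticulum, and SYNPO2, an actin-binding protein. PLN read 5.02, 5.0 and 5.83 in SCS and 5.86, 7.63 and 6.81 in NEVKP (difference 1.48), and SYNPO2 was higher by 0.61. These are calcium-store and cytoskeletal genes. MYLK, the myosin light chain kinase of contraction, differed by 0.30, but a further probe set of it by -0.03. SMTN, smoothelin, differed by -0.31. Without NEVKP replicate 3 the number higher was 7 and the median 0.26, and the median was 0.07 without SCS replicate 1 and -0.02 without NEVKP replicate 2. NEVKP replicate 2 held the highest of the 6 values for 14 of the 22 genes, against 21.9% of all genes. Endothelial genes had 1 of 24 higher and 1 lower, shares of 4.17% each that are near the background. These were PROX1 (1.03), a factor of lymphatic endothelium, and FLT1 (-0.45), a VEGF receptor, while PECAM1 differed by 0.04. Of endothelial genes, those higher were 3 without SCS replicate 2 and 6 without NEVKP replicate 3, and the number lower was 3 without NEVKP replicate 1. For 16 of the 24, NEVKP replicate 2 held the highest of the 6 values.

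Sterol and fatty acid synthesis had 3 of 27 higher and 2 lower. ACACA, the acetyl-CoA carboxylase of lipid synthesis, read 7.08, 7.49 and 6.98 in SCS and 6.35, 6.59 and 6.89 in NEVKP (difference -0.58). ACACB, the carboxylase at the mitochondrial membrane, pointed the other way, with 5.31, 5.13 and 5.62 in SCS and 5.65, 5.91 and 6.30 in NEVKP (difference 0.60). STARD4, a cholesterol transfer protein, was higher by 0.65. The number lower was 6 without SCS replicate 2 and 5 without NEVKP replicate 2, and the number higher was 1 without NEVKP replicate 3. Regulated cell death had 1 of 31 higher (3.23%, under the background), PMAIP1 (0.36), a BH3-only protein, and 0 lower, with 3 higher without SCS replicate 1. The lists of red cells and platelets (19 genes) and of fat and skeletal muscle (20 genes) had 0 at that level. Urothelium and mesothelium had 0 of 15 higher and 1 lower, KRT15 (-0.45, dim), and 3 lower without NEVKP replicate 3.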

How the data were processed

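Expression was measured on Affymetrix arrays, 1 per animal, in 9 kidney biopsies. In the deposited table each probe set has a log2 intensity from RMA, which the authors ran per the submitters' processing notes; these also name limma 3.34.14. RMA scales arrays to a common distribution, so a shift of most genes in 1 group would not be seen. Array type, filters and scan batches: not given in the sources used here.

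A limma model (version 3.58.1, R 4.3.3, default eBayes) of group alone was fitted to all 19124 probe sets on all 9 arrays, with 6 residual degrees of freedom and 4.12 from the prior. The contrast was NEVKP minus SCS. Benjamini-Hochberg adjustment ran over all probe sets, with a threshold of 0.05, and intervals are at 95%. Of the 19124 probe sets, 944 had values identical to another probe set. They were kept, so the probe set counts and the adjustment treat them as separate measurements. Of 13680 annotated probe sets, 357 had several symbols and 7 a symbol and gene ID that disagreed, which left 13316 named probe sets and 12355 genes. A probe set was dim when its mean was under 3.92.

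The members and gene lists were chosen with earlier results of these data known. The 29 lists came from general knowledge of genes, and lists share members. Named genes were, per direction, the 15 of smallest unadjusted p whose groups did not overlap, filling a rule that asked first for genes past the threshold. Locus and reading frame symbols were passed over. To these came up to 6 members per list by p, the first 3 measured members of each cell type list, and fixed genes, of which MKI67, HMOX1 and CD163 were among those not analysed here. Not every gene that this rule admits is printed above, defining markers included, and some lists have no gene printed. Other genes are said to be chosen after their values were seen.

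Samples with the same replicate number did not deviate together, so numbers were not used as pairs. The alternatives were array weights, the 6 arrays alone, a robust prior with a trend, the replicate number as a block, omission of dim probe sets or of each array, centring of arrays, and averaging over the probe sets of a gene. Omission of both arrays of lowest weight was chosen after seeing the data. The fit was run on simulated arrays with planted changes and independent noise of the same spread in all groups. That run checks the code only and does not test how the fit behaves on these arrays.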

Additional observations from a re-analysis of the deposited data

How the results depend on the processing

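Under 16 alternatives, limma called 0 or 1 probe sets past an adjusted p of 0.05. The 1 was UBD, with array weights and without SCS replicate 2, so the range was 0 to 1 without any single array. Probe sets at an unadjusted p under 0.05 numbered 1131 to 1607 against 1434 under the same 16; averaging a gene's probe sets has no value per probe set. Genes without overlap numbered 721 to 1391 higher and 811 to 1520 lower without any single array, and 2138 and 2430 with both arrays of lowest weight omitted; fewer arrays overlap less by construction. Same-numbered arrays correlated at -0.14 to 0.13 in their deviations from group means. With the replicate number as a block, 0 probe sets passed and 1312 had an unadjusted p under 0.05, and 14 interferon genes were higher against 8; the block changed no call at the adjusted threshold. Centring arrays moved the median of all genes by -0.0081.

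Of 164 named genes, 154 kept their direction under all alternatives run, 17 for most and 16 for the 6 dim ones. Part of this was fixed in advance. The block, the trended prior, the 6 arrays alone and omission of dim probe sets or a No Storage array cannot change a gene's difference. Genes named because their groups did not overlap cannot reverse when an array is left out. Size was less stable: 67 moved by over 1.5 times without some single array, such as HSD11B2 (0.42 to 1.28), CASR (0.58 to 1.60) and S100A8 (-0.39 to -0.0019). Without any single array, CD3E ranged from -0.0534 to 0.23, CPT1A from -0.0555 to 0.40, HAVCR1 from -0.0325 to 0.0536, LCN2 from -0.63 to 0.12 and LRP2 from -0.23 to 0.21. MX1 ranged from -0.38 to 0.70, NPHS1 from -0.21 to 0.10, PCK1 from -0.56 to 0.0753, PECAM1 from -0.20 to 0.33 and VEGFA from -0.19 to 0.0838. With array weights HAVCR1 was -0.0038, NPHS1 0.0025 and VEGFA 0.0688, and with the mean of its probe sets VEGFA was 0.0911. With both arrays of lowest weight omitted, HAVCR1 was -0.0174, LRP2 0.12, NPHS1 0.12, PCK1 0.0063, PECAM1 -0.10 and VEGFA 0.20. The cause was not tested.

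Among list counts above 2 on either side that moved by over 1.5 times, array weights gave 5 interferon genes higher against 8, 4 antigen genes against 8, 3 chemokine, macrophage and collecting duct genes each against 5, and 5 sterol genes lower against 2. The 6 arrays alone gave 3 matrix genes lower against 5, and omission of dim probe sets 2 neutrophil genes against 4. With both arrays of lowest weight omitted, members higher were 2 antigen genes against 8, 2 macrophage and 3 chemokine genes against 5 each, and 15 solute carriers against 25. Members lower were 3 matrix genes against 5, 5 NRF2 genes against 8, 5 complement genes against 3, 10 sterol genes against 2, 1 neutrophil gene against 4, 4 chemokine and 3 hypoxia genes against 0, 1 proximal tubule gene against 3 and 2 ribosomal genes against 6. Over 3 animals a group, the median SE of a gene's difference was 0.16, which limits what differences could be resolved.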

Other observations

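The families and genes in this part were chosen after their values were seen, so their counts are descriptions. Genes of intraflagellar transport and the Bardet-Biedl complexes, which build the primary cilium of tubule cells and move cargo through it, had 7 of 14 members higher in NEVKP than in SCS at a limma unadjusted p under 0.05 and 1 lower, against 4.42% and 3.29% of all genes. BBS10, a chaperonin-like assembly factor, read 4.67, 4.48 and 4.49 in SCS and 4.89, 5.50 and 5.37 in NEVKP (difference 0.71). IFT81 and IFT74, partners that bind tubulin, were higher by 0.45 and 0.35, and IFT80 by 0.45. BBS4 and BBS5 were higher by 0.64 and 0.47 with overlapping groups, and IFT43 was the member lower, by a log2 difference of -0.33. The median difference was 0.24 and stayed between 0.16 and 0.30 when any 1 array was left out. The number higher was 4 without NEVKP replicate 1 or NEVKP replicate 3.

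Solute carriers had 25 of 235 members higher and 6 lower. Beyond those already named, SLC25A4, the mitochondrial ADP/ATP carrier, read 8.37, 8.17 and 8.43 in SCS and 8.96, 8.91 and 8.81 in NEVKP (difference 0.57), and SLC15A2, a peptide transporter, read 7.38, 8.68 and 8.35 in SCS and 9.16, 9.47 and 9.50 in NEVKP (difference 1.24). On the lower side, SLC39A14, a zinc and iron transporter, differed by -0.55 and SLC29A1, an equilibrative nucleoside transporter, by -0.73, whereas the concentrative SLC28A2 was higher. Without SCS replicate 2 the number higher was 13, and without NEVKP replicate 1 the number lower was 10. Cytochromes P450 had 5 of 20 members higher and 1 lower. CYP2D25 read 6.36, 6.02 and 7.12 in SCS and 7.86, 7.29 and 8.06 in NEVKP (difference 1.23). The member lower was CYP24A1, which inactivates vitamin D, with 11.15, 10.63 and 10.81 in SCS and 10.32, 9.50 and 8.82 in NEVKP (difference -1.32). In No Storage it ran from 8.20 to 10.71, which overlapped with both groups. The family's median changed sign, from -0.02 to 0.18 without SCS replicate 3.

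Cytosolic ribosomal protein genes had 39 of 41 negative differences, 6 of them at an unadjusted limma p under 0.05, but the differences were small, with a median of -0.15 (-0.24 to -0.11 without any single array). RPS25 read 8.87, 9.12 and 8.69 in SCS and 8.41, 8.11 and 8.54 in NEVKP. The number lower was 3 without SCS replicate 2 or NEVKP replicate 2 and 11 without NEVKP replicate 3. Many processed copies of these genes exist, and probes may not separate them. All 9 Toll-like receptors had positive differences, against 49.1% of all genes, led by TLR1 (0.47), with 2 at that level.

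Some of the largest differences rested on 1 or 2 arrays. SELE, the E-selectin of activated endothelium, read 9.18 in NEVKP replicate 2 and 4.20 to 4.63 in all other SCS and NEVKP arrays. NDNF, a secreted neurotrophic factor, read 4.65, 9.33 and 6.71 in NEVKP and 4.55 to 5.49 in SCS. SLC5A8, a sodium-coupled monocarboxylate transporter, read 5.08, 8.15 and 7.51 in NEVKP and 4.40 to 5.08 in SCS. ZADH2, an oxidoreductase, read 8.41, 6.57 and 5.06 in NEVKP and 3.97 to 4.90 in SCS, and its No Storage arrays ran from 5.51 to 9.13. Among the other large differences, PTGR1, an NADPH-dependent reductase, and PIR, a nuclear protein, both outside the NRF2 list, differed by -1.23 and -1.19. PTGR1 read 10.50 to 11.22 in SCS and 9.30 to 10.29 in NEVKP without overlap, while the PIR groups overlapped. No Storage arrays ran from 9.52 to 11.27 for PTGR1 and from 6.81 to 8.18 for PIR. RNF39 differed by -1.73 without overlap, with 7.60 to 7.92 in SCS and 5.40 to 6.61 in NEVKP. In No Storage it ran from 6.28 to 8.47, which reached into NEVKP and above SCS.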
